A study of Mus musculus with 18 samples.

Results

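ERVK elements are one family of mouse endogenous retroviruses, and their RNA was followed through the rectus femoris, a thigh muscle, of young, old and 3TC-treated old mice. They were taken as every row of the deposited table whose identifier ends in the family tag ERVK within the LTR class, which gave 285 of the 1146 transposable-element rows and of 25604 rows in all. By name, 45 rows were internal parts (names ending in -int, the stretch that holds the viral genes) and 240 carried other names, mostly of long terminal repeats (LTRs), the flanking stretches that hold the promoter. A mean of at least 10 normalised counts over the libraries was reached by 271 rows, and these were tested. The other 14 lay under that mean, and 3 of them (RLTR43A, RLTR43B and RNLTR23) were at 0 in every library.

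An ERVK provirus is a retroviral genome fixed in the germ line, with gag, pro and pol genes between a pair of LTRs, although most copies in the genome are solitary LTRs or damaged. IAP and the ETn/MusD elements are the members best known for new insertions in laboratory mice, and ETn elements depend on proteins made by their MusD relatives. In most mouse cells ERVK copies are held silent by KRAB zinc finger proteins that recruit TRIM28 and the histone methyltransferase SETDB1, and by DNA methylation. 3TC (lamivudine) is a nucleoside analogue that stops reverse transcriptase, the step after transcription in which the viral RNA is copied into DNA.

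The mice were C57BL/6. The old 3TC arm was 19 months of age and received 3TC at 2 mg per mL of drinking water over 6 weeks, the old untreated arm was 19 months of age, and the young untreated arm was 8 months of age. Each arm had 6 libraries of poly(A) RNA, 3 labelled female and 3 labelled male. The labels name no transgene or mutation. Each row sums the reads of all copies of a subfamily, so a value is not a level per copy or per length, and values are compared between libraries and not between rows.

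Recovered reads ranged from 64.2 M to 85.4 M per library (M for 1e+06). The 10 markers of skeletal muscle fibres were detected in every arm, with a summed level of 6537520 to 11182000 normalised counts. Liver transcripts were present in uneven amounts, from 1756 to 365230 summed counts over 17 markers. Their median sums were 8337 in old 3TC, 12226 in old untreated and 28759 in young libraries. Of the 17, 2 had a higher fitted level in old untreated than in young muscle, with a median log2 change of −3.51. Of 12 brain markers, 0 had a higher fitted level with 3TC, with a median log2 change of −1.70. No marker of either list passed an adjusted p under 0.05 (limma). Young untreated females 1 and 3, whose columns are named YF2 and YF3, stood apart in the transposable-element rows. These rows held 5.92% of the counts in YF2 and 12.0% in YF3, against 1.54 to 2.51% in the other 16 libraries. Results that use the young arm are therefore given with all libraries and again without this pair.

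ERVK rows together held between 110479 and 160216 normalised counts in old 3TC libraries, with a median of 123498. In old untreated libraries they held between 127291 and 178145, with a median of 141529. In young libraries they held between 114048 and 505772, with a median of 148364. The 3 arms overlapped, and the 2 highest sums of the series were those of YF2 (272969) and YF3 (505772). Without these 2, the young arm averaged 135978 ± 17995 (SD, n = 4), beside 128449 ± 16936 in old 3TC and 146738 ± 18162 in old untreated libraries (SD, n = 6 each). In bulk tissue, fewer cells of a type and less RNA per cell cannot be told apart.

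**Figure D1:**
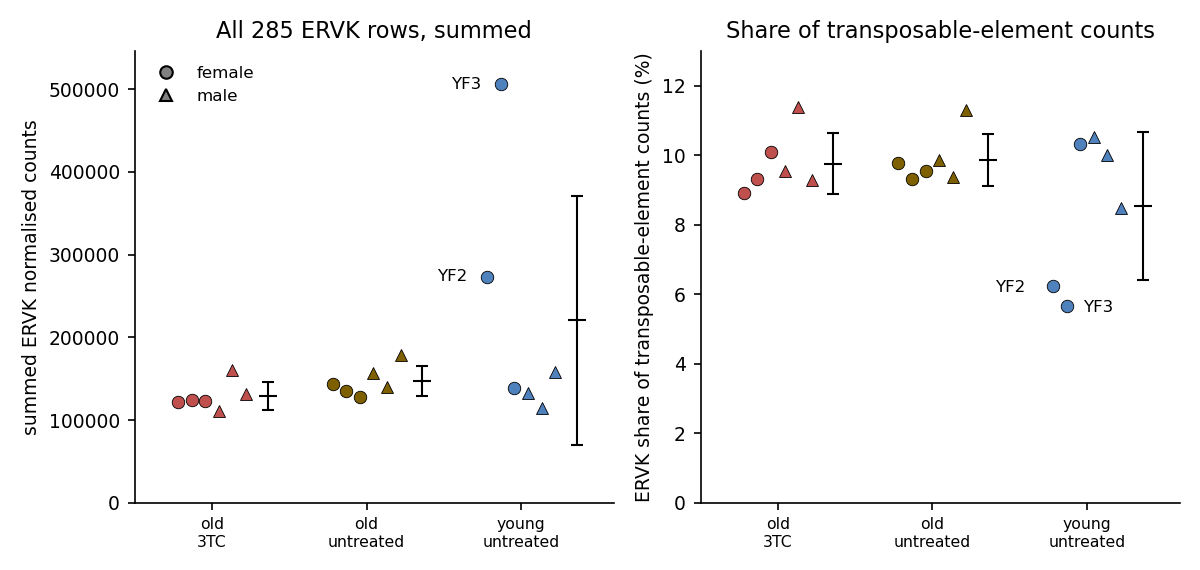
Left, normalised counts summed over the 285 ERVK rows in each library; right, these counts as a percentage of all transposable-element counts. Points are libraries (circles females, triangles males) and bars are the mean ± SD of 6 libraries; YF2 and YF3 are the highest of the 18 on the left and the lowest on the right.

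IAP and RMER rows held the most ERVK counts of the name groups. Over the 16 libraries other than YF2 and YF3, the 126 rows in no name group held a median of 34.6% of the ERVK counts. The 25 IAP rows held 25.5%, the 46 RMER rows 21.6%, the 13 MERVK10/RLTR10 rows 4.06%, the 23 RLTR13 rows 3.99% and the 5 ETn/MusD rows 3.56%. MMTV-int, the internal part of mouse mammary tumour virus, held 0.0251%. IAPEz-int, the internal part of a young group of IAP elements, had the highest count of all, with a mean of 19084 over the 18 libraries. RLTR20A4 (4715), RMER19B (3868), RLTR17B_Mm (3658) and IAP1-MM_I-int (3354) came next. These figures sum over all copies and do not rank the elements by activity.

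The excess in YF2 and YF3 was spread over nearly all ERVK subfamilies, and IAP rows took less part in it than most. In both libraries the count was above all of the other 16 for 216 of the 271 tested ERVK rows (79.7%), which is close to the 81.1% of all tested transposable-element rows and far from the 1.71% of gene rows. YF3 was above YF2 for 263 of the 271. The mean of YF2 and YF3 over the median of the other 16 had a median of 3.72 over the 270 ERVK rows for which it could be formed, against 0.91 for gene rows, 4.51 for ERV1, 3.78 for ERVL and 7.17 for L1 rows. It was under 1 for 4 ERVK rows, 1 to 2 for 35, 2 to 5 for 135 and 5 or more for 96. Tested rows were chosen by their mean over all libraries, so YF2 and YF3 helped to choose the rows that describe their excess. Rows that are low in the other 16 libraries could pass through the pair. How far this raises these counts and ratios was not tested. ERVK made up a smaller share of the transposable-element counts in YF2 (6.23%) and YF3 (5.67%) than in the other 16 libraries (8.47 to 11.4%).

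By name group, the median ratio was 7.28 for MERVK9/RLTR9, 7.09 for MYSERV, 5.15 for BGLII, 4.73 for RMER and 4.43 for ERVB rows. It was 2.81 for RLTR13, 2.78 for ETn/MusD, 2.49 for MERVK10/RLTR10 and 2.12 for IAP rows. IAPEz-int had 20325 counts in YF2 and 27375 in YF3, against 13937 to 25618 in the other 16, so that only YF3 passed their range. MYSERV-int, the internal part of a murine ERVK lineage, had 1568 and 3227 in the same libraries, against 211 to 626. MMTV-int did not share the excess, with 25.2 in YF2 and 8.73 in YF3, against 6.92 to 18.6 in the 4 other young libraries and up to 83.6 in the old ones. The IAP LTR rows were uneven: IAPLTR2b had 3745 in YF3 and 406 in YF2, against 113 to 268 in the other 16, and IAPLTR2a had 2141 and 308, against 66.9 to 290.3. IAPLTR2_Mm had 5072 in YF3 and 1376 in YF2, against 1118 to 1457.

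**Figure D2:**
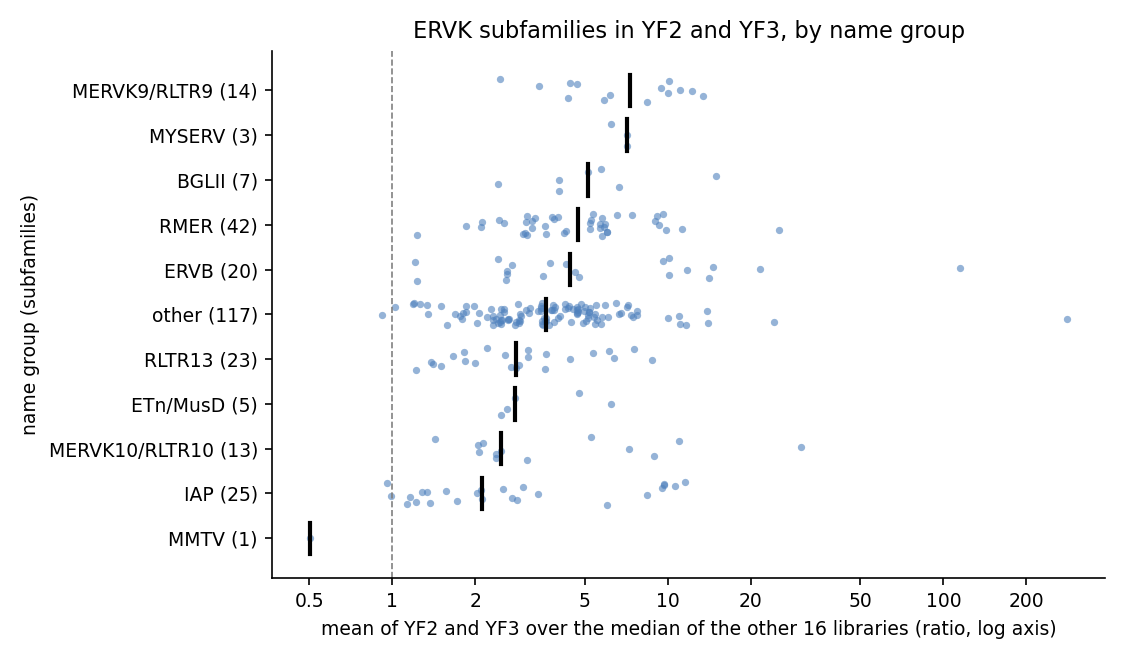
For each tested ERVK subfamily (points), the mean count of YF2 and YF3 divided by the median of the other 16 libraries, on a log axis, in name groups with the number of subfamilies in brackets. Black bars are medians, from 7.28 for MERVK9/RLTR9 down to 2.12 for IAP and 0.505 for the single MMTV row, whose counts are higher in the old libraries among the 16; the dashed line marks a ratio of 1.

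Other values moved with this excess. The olfactory and vomeronasal receptor genes, which were taken to be silent in muscle, had a summed count of 910 in YF2 and 1548 in YF3, against 407 to 837 in the other 16 libraries. The major satellite row GSAT_MM had 1452 and 5066, against 34.2 to 308. The nucleus-retained long RNAs did not set the pair apart, with sums of 45848 in YF2 and 45849 in YF3, inside the range of 25749 to 65836 over all libraries. The 8 adipocyte markers were lower in the pair, with sums of 16492 in YF2 and 13666 in YF3, against 23871 to 228016. The mean log2 level of the 12 macrophage markers was 8.57 in YF2, just under the range of 8.59 to 11.1 in the other 16, and 7.55 in YF3. Their sum was 10662 in YF2, inside the range of 7810 to 47642 in the other 16, and 4414 in YF3. By the sum, only YF3 therefore lay below the other libraries. No adipocyte or macrophage marker was at 0 throughout, and the part of these cells in the excess was not tested. Whether the sources of these reads differ between libraries was not tested.

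The age comparison asks whether ERVK RNA rises in old muscle. None of the 271 tested ERVK rows passed an adjusted p under 0.05 between old untreated and young libraries (limma), against 46 of all 17028 rows (0.27%). At an unadjusted p under 0.05, limma gave 1 ERVK row higher in old untreated muscle (MMTV-int) where 19.4% of all rows were higher, and 22 ERVK rows lower where 1.62% of all rows were lower. On the recovered reads edgeR also called 0 (all rows 0.0117%), and DESeq2 called 15 of the 264 ERVK rows to which it gave an adjusted p (5.68%, all rows 1.82%), of which 1 was higher. DESeq2 called 0 without YF2 and YF3 (all rows 0.475%). Of all 271, 20 had a higher and 251 a lower fitted level in old untreated muscle, with a median log2 change of −0.47 beside 0.15 over all rows. Median-of-ratios scaling over genes moved the median of all rows to −0.01 and that of ERVK rows to −0.64. ERV1, ERVL and L1 rows had medians of −0.54, −0.40 and −0.77, and of 0.20, 0.18 and 0.19 without YF2 and YF3.

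This downward shift depended on YF2 and YF3 in the young arm. Leaving out YF3 alone gave a median of −0.14, and without both libraries the median log2 change of ERVK rows was 0.15 beside 0.14 over all rows, with 214 higher and 57 lower in old untreated muscle. Relative to the whole table no shift remained: with median-of-ratios scaling the medians without the pair were 0.01 for ERVK and 0.01 for all rows, with 145 ERVK rows higher and 126 lower, and quantile normalisation gave 133 higher and 138 lower. Again 0 ERVK rows passed, of 2 rows in all (0.0117%), and at an unadjusted p under 0.05 limma gave 18 ERVK rows higher (all rows 10.7%) and 3 lower (all rows 0.81%). Males, whose young libraries do not include the pair, had a median difference of 0.23 for ERVK rows and 0.15 for all rows (mean log2 of 3 old untreated minus 3 young libraries). Females, with YF2 and YF3 in the young arm, had −1.19 and 0.17.

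**Figure D3:**
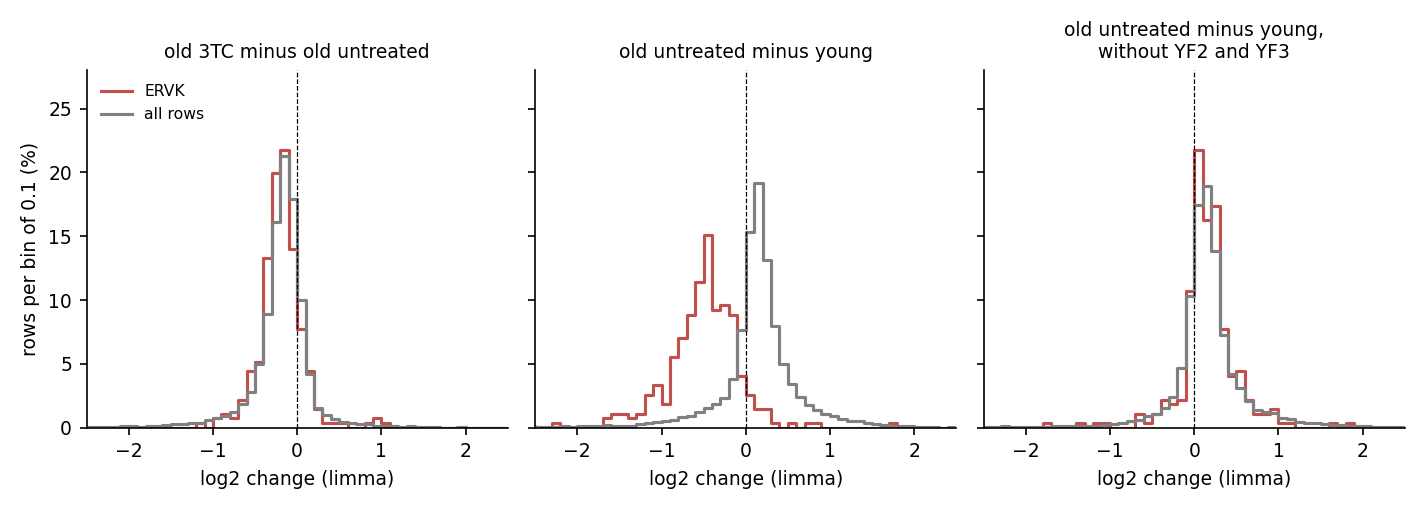
Distribution of the fitted log2 changes of the 271 tested ERVK rows (red) and of all 17028 rows (grey), as the percentage of rows in bins of 0.1, for 3TC, for age, and for age without YF2 and YF3. The ERVK median is −0.19 for 3TC, −0.47 for age and 0.15 for age without the pair, against −0.16, 0.15 and 0.14 for all rows.

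MMTV-int was the ERVK row nearest to the threshold with age. It had 31.7, 36.7 and 83.0 normalised counts (lowest, median and highest of 6) in old untreated libraries, against 6.92, 13.8 and 25.2 in young libraries. Every old untreated library lay above every young one, in both sexes, which held for no other ERVK row and for 0.946% of all rows. The fitted log2 change was 1.71 ± 0.42 (SE), with an adjusted p of 0.0676 (limma), and 1.83 ± 0.46 without YF2 and YF3, with an adjusted p of 0.204 (limma). Over 38 alternatives the adjusted p ran from 0.0273 to 0.432, and it was under 0.05 in 3, namely DESeq2 (0.0273) and limma without young untreated male 8 (0.0388) or without young untreated female 8 (0.0453). A fit with the mean log2 levels of the liver and brain markers as covariates gave a change of 1.47 (adjusted p = 0.272, limma). In that fit 4 of all 17028 rows passed with age, beside 46 in the main fit. With counts this low, few reads decide each value.

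Old 3TC libraries had 22.3, 52.5 and 83.6 counts of MMTV-int, a range that held that of the old untreated libraries, and the log2 change with 3TC was 0.01 ± 0.42 (adjusted p = 0.993, limma). MMTV is known to pass through lymphocytes, so markers of B and plasma cells are given beside it. The 8 markers that have a row were all at a higher fitted level in old untreated than in young muscle (7 with median-of-ratios scaling and 6 with quantile normalisation), and none passed the test. Their median log2 change was 0.56, and 1.00 without YF2 and YF3, where all 8 were again higher. Their summed level was 5042, 5400 and 7022 (lowest, median and highest) in old 3TC, 5485, 6635 and 9029 in old untreated and 3912, 4827 and 6692 in young libraries, and none of them was at 0 throughout. The sum follows the markers with most counts and did not order libraries as their mean log2 level did. Old untreated female 1 had the highest sum (9029) at a mean log2 level of 5.64. Old untreated male 6 had a sum of 5485 at 7.20. Of all 17028 rows, 12794 were higher with age with all libraries and 12752 without the pair. The 6 T cell markers were also all higher with age, with and without the pair, and none passed, with medians of their sum of 233, 238 and 163 in the same arms. Their part in the MMTV-int values was not tested.

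RLTR3_Mm and ERVB2_1-I_MM-int followed MMTV-int among the rows with a higher level in old untreated muscle, and neither passed. RLTR3_Mm had 41.0, 47.6 and 84.9 counts in old untreated libraries, against 19.1, 34.0 and 66.5 in young ones (log2 change 0.57 ± 0.36, adjusted p = 0.342, limma). ERVB2_1-I_MM-int had 41.6, 45.2 and 120.1, against 6.92, 38.0 and 64.4 (0.78 ± 0.40, adjusted p = 0.264). With the pair left out the changes were 0.77 ± 0.38 for RLTR3_Mm and 1.01 ± 0.45 for ERVB2_1-I_MM-int (adjusted p = 0.441 and 0.415, limma). Both overlapped between the arms with all libraries, and the highest ERVB2_1-I_MM-int value came from old untreated female 1 alone.

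The rows with the smallest p among those lower in old untreated muscle were RLTR26_Mus, MMERVK9E_I-int and MLTR18_MM. RLTR26_Mus had 154, 181 and 219 counts in old untreated libraries, against 171, 322 and 817 in young ones (log2 change −0.97 ± 0.26, adjusted p = 0.0757, limma). MMERVK9E_I-int, an internal part, had 379, 506 and 564, against 496, 859 and 3966 (−1.10 ± 0.35, adjusted p = 0.106), and MLTR18_MM had 50.6, 81.6 and 107, against 72.4, 186 and 691 (−1.21 ± 0.39, adjusted p = 0.107). The 2 highest young values of RLTR26_Mus, MMERVK9E_I-int and MLTR18_MM were those of YF2 and YF3. Without the pair the changes were −0.57 ± 0.22, −0.42 ± 0.18 and −0.61 ± 0.31, with adjusted p values of 0.357, 0.382 and 0.451 (limma). DESeq2 with all libraries called RLTR26_Mus and MMERVK9E_I-int, with adjusted p values of 0.00381 and 0.00621.

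Without YF2 and YF3, 4 ERVK rows lay higher in every old untreated library than in each of the 4 other young libraries (1.48% of the members and 1.51% of all rows). Beside MMTV-int and ERVB2_1-I_MM-int these were RLTR13D3 and IAP-d-int, which were named after their values were seen. IAP-d-int, an internal part of IAP type, had 128 to 197 counts in old untreated libraries, against 56.3 to 110 in the 4 young ones (log2 change 0.92 ± 0.25, adjusted p = 0.252, limma). In old 3TC libraries it had 66.9 to 134, with 1 library inside the old untreated range (log2 change with 3TC −0.84 ± 0.48, and −0.84 ± 0.22 without YF2 and YF3, with adjusted p values of 0.552 and 0.463, limma). RLTR13D3 had 260.3 to 538 in old untreated and 209 to 255 in the 4 young libraries. With all libraries neither row was higher without overlap, and MMTV-int was the only ERVK row that was. DESeq2 with all libraries called IAP-d-int in the sex difference of the age change (log2 −2.68, adjusted p = 0.0242), and not without the pair.

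3TC in old muscle changed no ERVK row past the threshold. Of the 271, 0 passed (limma, all rows 0%), as with edgeR and DESeq2. At an unadjusted p under 0.05 there were 0 higher (all rows 0.117%) and 2 lower (all rows 9.33%) in old 3TC muscle. The median log2 change was −0.19 for ERVK rows and −0.16 for all rows, with 44 higher and 227 lower. With median-of-ratios scaling the medians were −0.05 for ERVK and −0.02 for all rows, with 106 higher and 165 lower, and with quantile normalisation they were −0.0034 and 0.001, so the ERVK median lay close to that of the whole table under each of these scalings. This comparison uses none of the young libraries for its means, and leaving out YF2 and YF3, which changes the estimate of the spread, kept the median at −0.19. It then gave 0 ERVK rows at an adjusted p under 0.05 (all rows 0%), 1 higher (all rows 0.112%) and 19 lower (all rows 10.6%) at an unadjusted p under 0.05. By name group the medians ran from −0.33 for ERVB to −0.06 for IAP rows, with 0.01 for MMTV-int, and the IAP median turned to 0.07 with median-of-ratios scaling. Leaving out single libraries moved the ERVK median between −0.28 (without old 3TC male 2) and −0.13 (without old 3TC female 8).

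IAPEz-int had 13937, 16227 and 19824 counts in old 3TC libraries, against 17335, 19005 and 25618 in old untreated ones (log2 change −0.25 ± 0.13, adjusted p = 0.54, limma). The arms overlapped, with 4 of 6 old 3TC libraries below all old untreated ones. The median log2 change over all rows was −0.16 on the same scale. ERVB4_2-I_MM-int, an ERVB internal part, had 149, 177 and 274 counts, against 199, 252 and 386 (−0.56 ± 0.24, adjusted p = 0.519), RLTR8 had 60.7, 72.5 and 97.3, against 90.6, 96.5 and 107 (−0.37 ± 0.17, adjusted p = 0.521), and RLTR12G had 126, 156 and 176, against 163, 185 and 256 (−0.31 ± 0.16, adjusted p = 0.532). These had the smallest p of the rows lower with 3TC, and in ERVB4_2-I_MM-int, RLTR8 and RLTR12G the arms overlapped.

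The rows with the smallest p among those higher with 3TC were scattered over single libraries. RLTR17C_Mm had 25.4, 73.6 and 170 counts in old 3TC libraries, against 22.6, 30.8 and 61.0 in old untreated ones (log2 change 1.02 ± 0.57, adjusted p = 0.546, limma). RLTR9C had 42.5, 88.6 and 499, against 51.9, 69.9 and 99.1 (0.87 ± 0.58, adjusted p = 0.58), and its 2 high values came from old 3TC female 5 (464) and male 1 (499). IAPLTR3 had 7.43, 10.8 and 24.0, against 0, 8.56 and 24.3 (0.96 ± 0.77, adjusted p = 0.627).

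Non-overlap between the arms with 3TC was found for RMER6A and RLTR26D_MM, named after their values were seen. RMER6A had 1923 to 2237 counts in old 3TC libraries, against 2286 to 2690 in old untreated ones (log2 change −0.23 ± 0.27, adjusted p = 0.747, limma). RLTR26D_MM had 57.4 to 80.5, against 84.9 to 117 (−0.44 ± 0.37, adjusted p = 0.643). These 2 make 0.738% of the ERVK rows, beside 0.382% of all rows that were lower without overlap. The median log2 change with 3TC over all rows was −0.16. The pooled error includes the young arm, where RMER6A ranged from 1724 to 8971, and without YF2 and YF3 the errors were 0.09 for RMER6A and 0.23 for RLTR26D_MM, with adjusted p values of 0.463 and 0.478 (limma).

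Old 3TC against young libraries shares its libraries with the 2 comparisons above and is given as values beside them. Of the 271 ERVK rows 0 passed (limma), of 2 in all (0.0117%), edgeR called 0 (all rows 0.0117%) and DESeq2 33 of 266 (12.4%, all rows 1.95%). DESeq2 called 2 without YF2 and YF3 (all rows 0.457%), MMTV-int and MMERVK9E_I-int, with adjusted p values of 0.024 and 0.0349. At an unadjusted p under 0.05 limma gave 1 higher (all rows 5.86%) and 93 lower (all rows 5.04%) in old 3TC muscle. The median log2 change was −0.66 for ERVK and 0.02 for all rows, −0.33 for ERVK without YF3 alone, and without YF2 and YF3 it was −0.01 for ERVK and −0.0047 for all rows. Without the pair 0 ERVK rows passed (all rows 0.0117%), and 5 were higher (all rows 3.03%) and 9 lower (all rows 3.13%) at an unadjusted p under 0.05.

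MMTV-int had a log2 change of 1.72 ± 0.42 in old 3TC against young muscle (adjusted p = 0.253, limma), and of 1.84 ± 0.46 without YF2 and YF3 (adjusted p = 0.493), with overlap in 1 old 3TC library (22.3) and the highest young library (25.2). RLTR12G was lower in every old 3TC library (126 to 176) than in every young one (192 to 347), with a log2 change of −0.70 ± 0.16 (adjusted p = 0.245, limma), and −0.53 ± 0.17 without YF2 and YF3 (adjusted p = 0.617). MMERVK9E_I-int was also lower without overlap, with 330 to 456 against 496 to 3966 (−1.34 ± 0.35, adjusted p = 0.27), and −0.67 ± 0.18 without the pair (adjusted p = 0.52). RLTR12G and MMERVK9E_I-int were the only ERVK rows lower without overlap, where 0.123% of all rows were. Without YF2 and YF3, 2 rows were lower in this way (all rows 0.716%), again these, and 2 were higher (all rows 0.64%), RLTR13D3 and MMTV-int. DESeq2 called MMTV-int (adjusted p = 0.0133), RLTR12G (0.00389), RLTR26_Mus (0.00695) and MMERVK9E_I-int (0.00275) with all libraries.

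**Figure D4:**
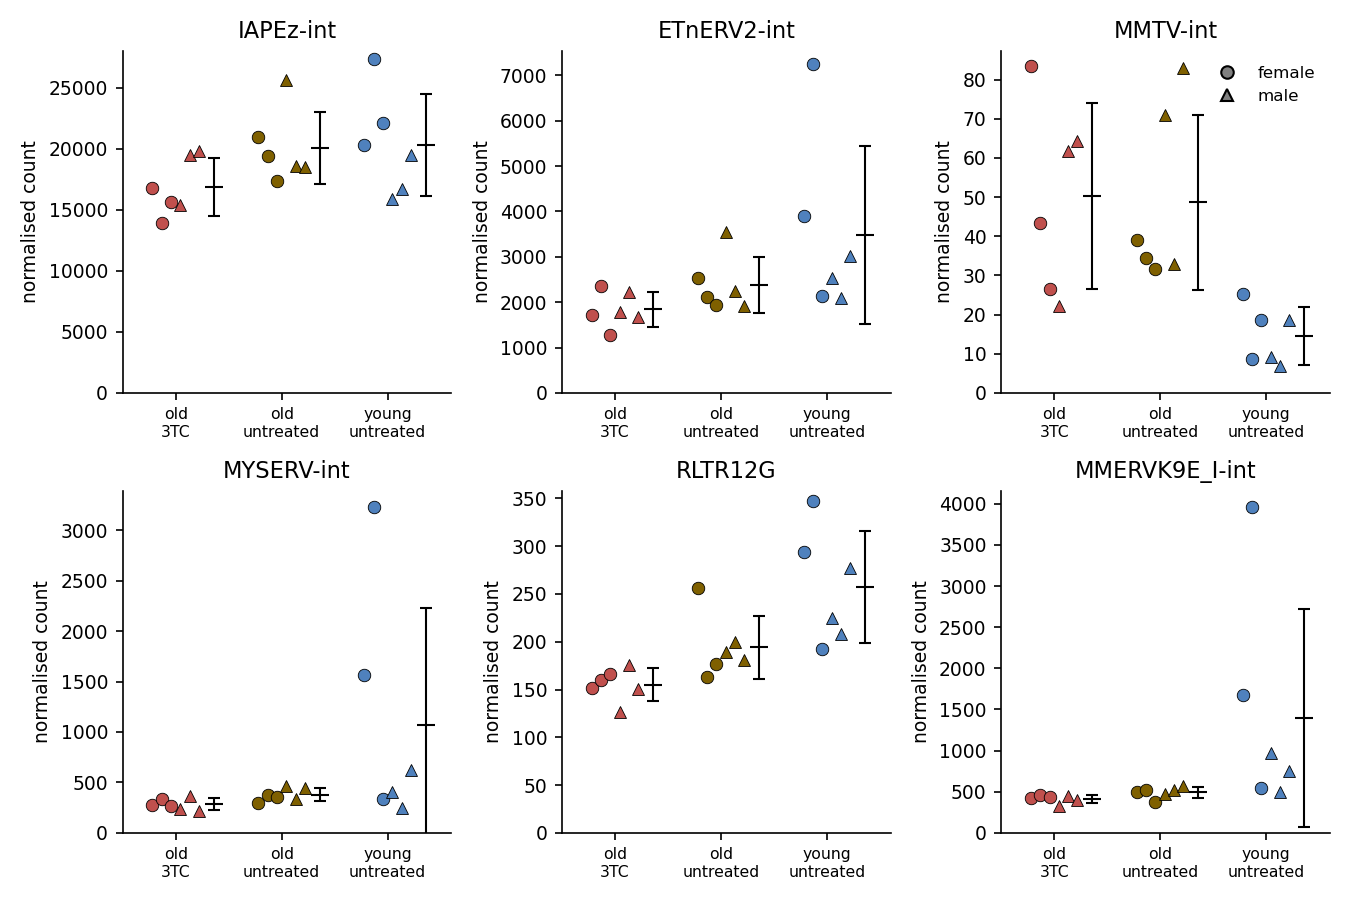
Normalised counts of 6 ERVK rows in each library (circles females, triangles males), with bars for the mean ± SD of 6 libraries, drawn down to 0 at most. MMTV-int shows all old untreated libraries above all young ones, RLTR12G and MMERVK9E_I-int show all old 3TC libraries below all young ones, and IAPEz-int overlaps between all arms.

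No ETn/MusD row passed in any comparison with limma or edgeR. With all libraries DESeq2 called ETnERV2-int and RLTRETN_Mm lower in old 3TC than in young muscle (adjusted p = 0.0361 and 0.047), and RLTRETN_Mm and ETnERV3-int in the sex difference of the age change (adjusted p = 0.0391 and 0.0124), and it called none of them without YF2 and YF3. ETnERV2-int, a MusD internal part, had 1284, 1757 and 2360 counts in old 3TC, 1907, 2183 and 3552 in old untreated and 2096, 2780 and 7245 in young libraries, where YF3 gave the highest value. Its log2 change was −0.37 ± 0.25 with 3TC (adjusted p = 0.589, limma) and −0.43 ± 0.25 with age (adjusted p = 0.318), and −0.01 ± 0.19 with age without the pair. MMETn-int had medians of 1043, 1204 and 1216 in the same arms, and all 3 arms overlapped. ETnERV-int had a log2 change of −0.22 ± 0.28 with 3TC and the LTR row RLTRETN_Mm one of −0.26 ± 0.36, and all 5 ETn/MusD rows had a lower fitted level in old 3TC than in old untreated muscle under the deposited and the 3 other scalings, with medians from −0.26 to −0.09.

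None of the remaining rows of the panel passed with limma. MMERVK10C-int, the internal part of the MERVK10C proviruses, had 927, 1111 and 1448 counts in old 3TC, 1084, 1409 and 1788 in old untreated and 864, 1501 and 5447 in young libraries. Its log2 change was −0.30 ± 0.31 with 3TC and −0.41 ± 0.31 with age (adjusted p = 0.703 and 0.437, limma), and 0.19 ± 0.18 with age without YF2 and YF3. RLTR10C had a log2 change of −0.14 ± 0.18 with 3TC, IAPLTR1_Mm one of −0.18 ± 0.15 and MYSERV-int one of −0.43 ± 0.44. MYSERV-int had 211, 269 and 367 counts in old 3TC, 295, 362 and 462 in old untreated and 243, 517 and 3227 in young libraries. Its log2 change with age was −0.89 ± 0.44 (adjusted p = 0.253, limma), and −0.01 ± 0.23 without YF2 and YF3 (adjusted p = 0.993). DESeq2 with all libraries called MYSERV-int with age, for old 3TC against young and in the sex difference of the age change (adjusted p = 0.0498, 0.0137 and 0.0456), and MMERVK10C-int in that sex difference (0.0238), and it called neither without the pair. IAP1-MM_I-int was the steadiest of the rows with most counts, with 3410 ± 484 in old 3TC, 3255 ± 540 in old untreated and 3395 ± 533 in young libraries (SD, n = 6 each), and 3325 in YF2 and 4048 in YF3. IAPEz-int had a log2 change of −0.01 ± 0.13 with age (adjusted p = 0.979, limma), and one of 0.13 ± 0.13 without the pair. RLTR20A4, RMER19B and RLTR17B_Mm had log2 changes with age of −0.25 ± 0.13, −0.23 ± 0.27 and −0.34 ± 0.22, and IAPEY4_LTR one of 0.07 ± 0.22. The same changes without YF2 and YF3 were −0.13 ± 0.14, 0.32 ± 0.13, 0.03 ± 0.14 and 0.09 ± 0.26, and none passed (limma).

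Differences between the sexes were tested as the change in females minus the change in males. For age 0 ERVK rows passed (limma, all rows 0%), with 0 higher (all rows 2.99%) and 142 lower (all rows 4.4%) at an unadjusted p under 0.05. On the recovered reads edgeR called 0 (all rows 0%) and DESeq2 68 of 269 (25.3%, all rows 2.7%). The median difference was −1.45 for ERVK and 0.01 for all rows. YF2 and YF3 are 2 of the 3 young females, so the sex difference and the excess of this pair cannot be told apart. Leaving out young untreated female 8, the only other one, gave 134 called ERVK rows (49.4%, all rows 2.98%), and leaving out YF2 and YF3 gave 1, RLTR11C_MM (all rows 0.00587%). DESeq2 without the pair called RLTR11C_MM and MLTR18_MM, 2 of 268 (all rows 0.161%). RLTR11C_MM had 1490 counts in young untreated female 8, against 141 to 277 in the other libraries outside the pair, so 1 library carries that call. For 3TC 0 ERVK rows passed (all rows 0%), with 1 higher (all rows 0.652%) and 0 lower (all rows 2.07%) at an unadjusted p under 0.05, and a median difference of 0.06 beside −0.07 over all rows. For 3TC edgeR (all rows 0%) and DESeq2 (all rows 0.424%) also called 0.

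Several ERVK rows were dominated by a single library, and of these only IAPEy-int and IAPLTR2_Mm belong to the panel while the others were named after their values were seen. IAPEy-int, an internal part of IAP type, had 31469 counts in old untreated male 6 and 8053 in old 3TC female 8, against 179 to 710 in the other 16 libraries. Its log2 change was 0.89 ± 1.07 with age (1.18 ± 1.27 without YF2 and YF3) and −0.37 ± 1.07 with 3TC, so the spread exceeded the change. RLTR25B had 10304 in the same old untreated male 6, 11753 in YF3 and 5423 in YF2, against 797 to 1772 elsewhere. The gene Nkpd1 (chromosome 7, 19517838 to 19525056, mm10), which encodes a predicted NTPase of the KAP family, had 955 counts in old untreated male 6 and at most 47.9 in any other library.

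IAPEY3-int had 18692 counts in young untreated male 1, against 196 to 850 in the other 17 libraries, and L1MA5, an old L1 subfamily, had 24036 in the same library, against 1411 to 7603. RLTR13B1 had 17419 in old 3TC male 2, against 359 to 1003 in the others. That library also had the most liver transcripts, with 190525 counts of Alb, the albumin gene. Young untreated female 8, the library with the next most Alb (84440), had 467 counts of RLTR13B1. The part of the liver transcripts in the RLTR13B1 value was not tested.

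A count of at least 200 in one library and at least 3 times the next highest was taken as dominance, a rule set after these values were seen. Without YF2 and YF3 it held for 5 of the 168 ERVK rows that reached that count (2.98%), for 7 of 354 other transposable-element rows (1.98%) and for 120 of 12356 gene rows (0.971%). The 5 were IAPEy-int, RLTR25B, IAPEY3-int, RLTR13B1 and RLTR11C_MM, and they lay in 4 different libraries. In old untreated male 6 the dominated rows were IAPEy-int, RLTR25B and Nkpd1, 3 of all rows, and in young untreated male 1 they were 2, IAPEY3-int and L1MA5. Whether such counts come from a single copy of the element cannot be read from subfamily sums.

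**Figure D5:**
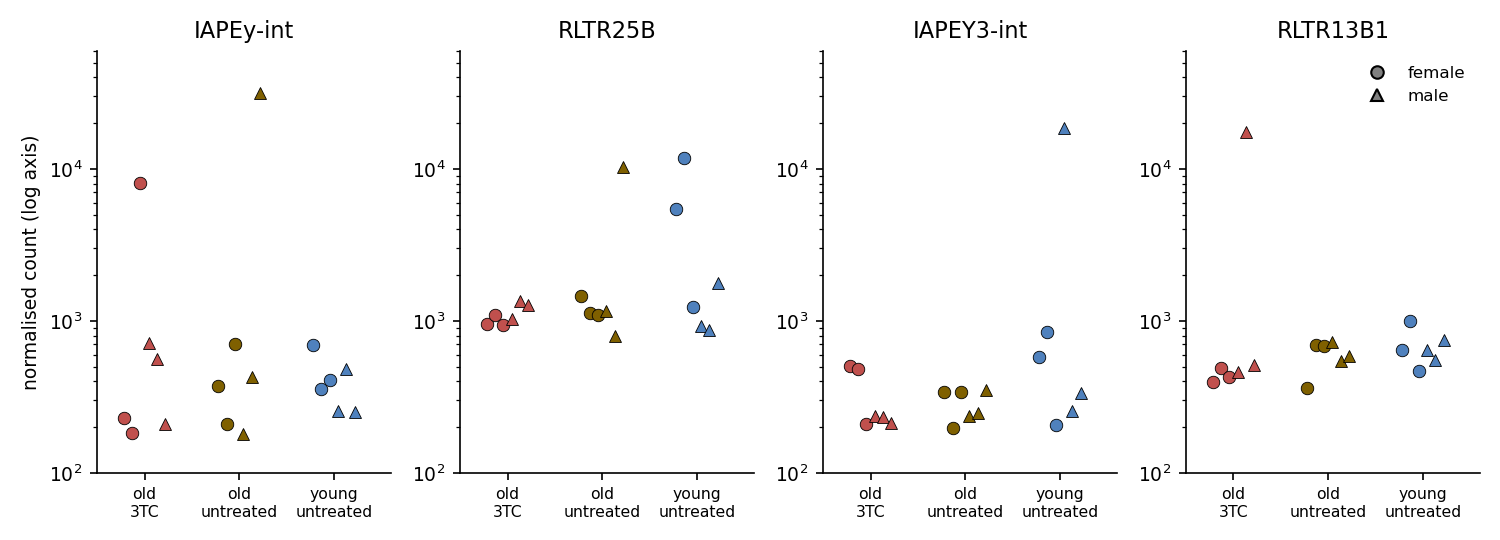
Normalised counts of IAPEy-int, RLTR25B, IAPEY3-int and RLTR13B1 in each library on a log axis (circles females, triangles males). IAPEy-int and RLTR25B are high in old untreated male 6, IAPEy-int also in old 3TC female 8, IAPEY3-int in young untreated male 1 and RLTR13B1 in old 3TC male 2; the 2 high young values of RLTR25B are YF2 and YF3.

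Genes that silence ERVK copies showed no called change. Of 29 genes of heterochromatin and KRAB zinc finger silencing, 0 passed in any comparison (limma). With age 27 had a higher fitted level in old untreated muscle, with a median log2 change of 0.17 beside 0.15 over all rows, and 7 of the 29 were higher at an unadjusted p under 0.05 where 19.4% of all rows were. Median-of-ratios scaling gave 15 higher and 14 lower. With the pair left out 24 of the 29 were higher, with a median of 0.17, and 6 at an unadjusted p under 0.05 where 10.7% of all rows were. With 3TC 25 had a lower level, with a median of −0.17 beside −0.16, and 18 with median-of-ratios scaling. Trim28, the corepressor bound by KRAB zinc finger proteins (chromosome 7, 12999114 to 13031035), had 2039 to 2730 counts in old 3TC, 2291 to 3500 in old untreated and 2008 to 2907 in young libraries. Setdb1, the methyltransferase it recruits, had a log2 change of −0.17 ± 0.12 with 3TC and 0.05 ± 0.12 with age (−0.07 ± 0.13 without YF2 and YF3). H3f3b, a gene of histone H3.3, and Suv39h1, a histone H3 lysine methyltransferase, had the smallest p with age, at 0.34 ± 0.09 and 0.56 ± 0.15 (adjusted p = 0.0701 and 0.0784, limma), and at 0.32 ± 0.09 and 0.49 ± 0.16 without YF2 and YF3 (adjusted p = 0.268 and 0.317).

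Genes that restrict or clear retroelement RNA and DNA gave no call either. Of 15, 0 passed in any comparison (limma), and 13 had a higher fitted level in old untreated than in young muscle, with a median log2 change of 0.41 beside 0.15 over all rows (0.25 and 10 higher with median-of-ratios scaling). At an unadjusted p under 0.05, 9 of the 15 were higher where 19.4% of all rows were. Leaving out the pair gave 12 higher rows, with a median of 0.24 beside 0.14 over all rows, and 5 at an unadjusted p under 0.05 where 10.7% of all rows were. Apobec3, a DNA cytidine deaminase that restricts retroviruses, had a log2 change with age of 1.04 ± 0.30 (adjusted p = 0.0855, limma), and Adar, an RNA-editing enzyme, one of 0.72 ± 0.20 (adjusted p = 0.0828). The changes with age without YF2 and YF3 were 0.88 ± 0.33 for Apobec3 and 0.55 ± 0.20 for Adar (adjusted p = 0.348 and 0.337, limma). With 3TC the log2 changes of Apobec3 and Adar were −0.55 ± 0.30 and −0.50 ± 0.20, with adjusted p values of 0.543 and 0.519 (limma). The 12 macrophage markers were all higher in old untreated than in young muscle too, with a median log2 change of 1.19 (0.98 without YF2 and YF3, the pair with the lowest mean log2 levels of these markers) and sums of 11196, 18428 and 26430 in old 3TC, 16213, 22419 and 47642 in old untreated and 4414, 9826 and 29781 in young libraries. On the deposited scale 12794 of all 17028 rows were higher with age. None of the 12 macrophage markers passed or was at 0 throughout, and their part in these values was not tested.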

How the data were processed

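RNA-seq of 18 muscle libraries was used as deposited. The deposited signal is a normalised read count per gene or transposable-element subfamily: the authors scaled each library to a common total of 74.0 M, as the values show, and all values were whole multiples of a step per library (100% within 0.001 reads), so reads were recovered. Per the submitters' processing notes, reads were aligned with STAR to mm10; which software and annotation counted the transposable elements, and how it assigned reads that match many copies, is not given in the sources used here. That assignment decides how reads fall between related subfamilies, so single subfamilies are uncertain. Gene coordinates are from GENCODE (GRCm38). Groups came from the titles; the column of young untreated female 1 is YF2. The 27 rows with dates in place of symbols took 0.0628 to 0.0831% of each library and entered no test.

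All 16060 gene and 968 transposable-element rows with a mean of at least 10 were fitted together with limma 3.58.1 in R 4.3.3 (lmFit, eBayes with a trend) on log2(normalised count + 1), with arm and sex as terms and 14 residual degrees of freedom, and Benjamini-Hochberg adjusted p under 0.05 over all rows. Fold changes on this scale understate those of low rows. Without YF2 and YF3 the same model was fitted to 16 libraries, on the rows chosen with all libraries. The pair thus helped to choose the rows in every comparison, including those for age and for sex differences. Sex differences came from the 6 combinations of arm and sex. Values are deposited normalised counts, errors of changes are SE and of means SD. edgeR 4.0.16 and DESeq2 1.42.0 on recovered reads, other scalings, filters, pseudocounts, leaving out each library and a replicate block were alternatives. The fit was tested on simulated data. Members and lists were chosen with earlier results of these data known. Named rows are a panel of 12 by name, the 5 with most counts and, for each comparison, the 3 with the smallest p in each direction. The labels do not say whether libraries of an arm came from separate mice, so p-values measure the spread between these libraries, which may be technical. Directions of groups of rows were checked under each scaling. No consensus sequence of the elements was used here.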

Additional observations from a re-analysis of the deposited data

Results flagged for a closer look

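In groups of 6 libraries, a value was singled out when its gap to the nearest other library took up more of the group's range than Dixon's 95% critical value allows. Of 99 groups tested, 16 met this. Chance gives about 1 in 20 among rows not chosen for their values, but rows here were named for a count dominated by a single library or for a small p, so the count is not read against that rate. In old 3TC libraries these were IAPEy-int (8053, female 8), RLTR13B1 (17419, male 2) and ERVB4_2-I_MM-int (274, female 5). In old untreated libraries they were IAPEy-int (31469) and RLTR25B (10304) in male 6, RMER19B (4977) and ERVB2_1-I_MM-int (120.1) in female 1, RLTR17B_Mm (4357) in male 1 and RLTR3_Mm (84.9) in male 6. In young libraries YF3 gave IAPLTR2_Mm (5072), ETnERV2-int (7245), RLTR17B_Mm (9207), MMERVK9E_I-int (3966), MLTR18_MM (691) and RLTR9C (357), and male 1 gave IAPEY3-int (18692). Old untreated male 6 and YF3 hold more of these values than other libraries of their arms. All values are normalised counts, and no cause was tested.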

How the results depend on the processing

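Over 41 alternatives the 0 ERVK calls for 3TC against untreated old muscle did not change. Without YF2 and YF3 the median ERVK log2 change was 0.1482 with age, also with transposable-element rows fitted alone, but −0.0109 with edgeR and −0.0023 with DESeq2. The medians over all rows moved in the same way, from 0.1388 with limma to −0.0155 with edgeR and −0.0067 with DESeq2. For old 3TC against young the ERVK median without the pair was −0.0114 (both fits), −0.0377 (edgeR) and −0.0331 (DESeq2). For the sex difference in the age change, the calls without the pair were 1 (limma, transposable-element rows alone, edgeR) and 2 (DESeq2), and 68 by DESeq2 with all libraries. DESeq2 called 15 rows with age and 33 for old 3TC against young, 2 for old 3TC against young without the pair, and 2 rows with age passed at an adjusted p under 0.1. Leaving out 1 library at a time gave 0 to 2 calls with age and 0 to 134 for the sex difference, both highest without young untreated female 8. The IAPEz-int age change turned positive at 0.1291 without the pair (both fits) and 0.0299 with liver and brain scores as covariates, and ran from −0.0873 to 0.0879 over single libraries left out. A replicate block gave a correlation of −0.0716 and 0 calls. With this block the median age change was −0.45 and the MMTV-int change 1.71 (adjusted p = 0.083, limma). Same-numbered libraries correlated over 0.1 in 3 of 7 pairs, and the labels do not say what a shared number means. The fits of transposable-element rows alone, of edgeR and DESeq2 and of the other scalings without the pair were added after the data were seen. The causes of these shifts were not tested, beyond the libraries left out. Rows of few reads, such as MMTV-int at 6.92 to 83.6, are limited by depth, and subfamily sums do not show which copy is transcribed.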
